A study of Mus musculus with 8 samples.

Results

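Collagen is finished by a small set of helper proteins after its chains are made, and 10 genes of this set are described here in growth plate cells. *P4ha1*, *P4ha2*, and *P4ha3* encode the catalytic subunits of the prolyl 4-hydroxylases, *Plod1*, *Plod2*, and *Plod3* the lysyl hydroxylases, *Serpinh1* the collagen chaperone HSP47, *Pcolce* the enhancer of C-propeptide cleavage, and *Lox* and *Loxl2* enzymes of crosslinking. They were picked by name, for what their products do, out of 16536 genes in the count table, with earlier results of these data known. All 10 were among the 15421 genes that passed the filter on low counts. RNA was sequenced from FACS-sorted mCherry+CD73+ cells of both femoral growth plates of 8 Pthrp-mCherry mice, 1 library per mouse. In all 8 mice mCherry marked cells with an active *Pthlh* gene, which encodes PTHrP, and selection for CD73 served to leave out mCherry+ cells of articular cartilage and perichondrium. The 4 SAG-treated mice received SAG, an agonist of Smoothened that turns on Hedgehog (Hh) signaling, i.p. once daily between postnatal days 30 and 36, and the 4 DMSO-treated mice received the vehicle on the same days. The mice were sacrificed at day 38. The study's methods place the injections a day later than its description of the series.

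Procollagen chains are modified while they are still unfolded in the endoplasmic reticulum. Hydroxylation of proline lets the triple helix stay folded at body temperature, and hydroxylation of lysine sets where sugars and crosslinks can form. HSP47 binds the folded triple helix and accompanies it toward the Golgi, proteases then remove the propeptides outside the cell, and lysyl oxidases join neighboring molecules into stable fibrils. Cartilage depends on this line of work because its matrix is built around a type II collagen network.

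Between 24971992 and 46593090 counts fell on genes in a library, and 3 counts, the floor used here, corresponded to 0.0644 to 0.120 CPM on the plain library totals, a floor that covers counting error only. All other CPM values were scaled with TMM factors. Over all tested genes, 404 (2.62%) were higher and 41 (0.266%) were lower in SAG at an adjusted p under 0.05 (edgeR's quasi-likelihood test, Benjamini-Hochberg adjustment). The 11 chondrocyte markers, among them *Sox9*, *Acan*, and *Comp*, were detected in every library, with summed levels of 9389 to 24980 CPM in DMSO and 4535 to 13080 CPM in SAG. Markers of neutrophils, of which 13 of 13 were in the table, summed to 5239 to 14901 CPM in DMSO and 28217 to 44835 CPM in SAG, so that every SAG library was above every DMSO library. The 9 B lineage markers summed to 64.6 to 358 CPM in DMSO and 13.9 to 28.3 CPM in SAG, and the other 8 marker lists overlapped between the groups. DMSO replicate 4 and SAG replicate 2 had the lowest chondrocyte sum of their group, and each also had the lowest level of 8 of the 10 genes in its group. In bulk RNA of a sorted population, fewer cells of a type and less RNA per cell cannot be told apart.

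The stretch just before the start of a gene was available for 7 of the 10 genes (RefSeq, GRCm38.p6, 250 bases), without *Plod2*, *Lox*, and *Loxl2*. The motif searched was ACGTG on either strand, the core of the element bound by hypoxia-inducible factors, because prolyl and lysyl hydroxylases are known hypoxia targets and the growth plate is poorly supplied with oxygen. It was found in 4 of the 7 stretches, those of *P4ha1*, *P4ha2*, *Plod3*, and *Serpinh1*, and in 5444 of 32851 promoters of the same length (16.6%). The motif holds a CG pair, and the 7 stretches were 55.6% to 70% G and C. The promoters compared were not matched for this content, and its part in the number of matches was not tested. A second motif, GAANNTTC or the same pair in the opposite order, the paired unit of heat shock elements, was searched because HSP47 is a heat shock protein. It was found in 1 of the 7, *P4ha2*, and in 12.8% of all promoters. The *P4ha2* window had both motifs, at separate places. A match of letters is not a site of binding. The 3 stretches below belong to the main prolyl 4-hydroxylase genes and to the chaperone gene, whose levels ran closely together over the 8 libraries, and the ACGTG motif (CACGT when read on the other strand) is in capitals. They lie at chr10:59323046-59323295 (plus strand, *P4ha1*), chr11:54100674-54100923 (plus strand, *P4ha2*), and chr7:99353240-99353489 (minus strand, *Serpinh1*), all outside annotated exons in GENCODE release M21. The *P4ha2* stretch lies downstream of a second, more distal annotated start of that gene.
P4ha1: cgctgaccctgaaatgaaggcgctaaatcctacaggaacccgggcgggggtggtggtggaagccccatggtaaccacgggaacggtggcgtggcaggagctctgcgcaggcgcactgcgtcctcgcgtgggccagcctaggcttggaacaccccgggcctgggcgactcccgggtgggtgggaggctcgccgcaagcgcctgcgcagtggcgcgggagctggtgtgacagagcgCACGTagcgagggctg
P4ha2: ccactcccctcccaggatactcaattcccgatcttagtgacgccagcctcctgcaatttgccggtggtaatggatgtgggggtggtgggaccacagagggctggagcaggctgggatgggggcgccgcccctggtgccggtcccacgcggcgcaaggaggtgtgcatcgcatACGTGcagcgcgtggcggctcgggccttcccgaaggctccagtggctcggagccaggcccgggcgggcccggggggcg
Serpinh1: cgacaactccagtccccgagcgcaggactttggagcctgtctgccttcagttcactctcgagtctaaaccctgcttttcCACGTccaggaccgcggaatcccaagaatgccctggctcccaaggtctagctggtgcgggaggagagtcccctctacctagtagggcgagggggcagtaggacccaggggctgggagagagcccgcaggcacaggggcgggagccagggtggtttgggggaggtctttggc

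None of the 10 genes passed the test for higher or for lower expression in SAG-treated mice. The estimate was below 0 for 8 of the 10, against 54.8% of all tested genes, and the median log2 fold change of the 10 was -0.44 against -0.08 over all genes. At an unadjusted p under 0.05, 3 were lower (*Plod2*, *Plod3*, and *Loxl2*) and 0 higher, where 6.5% and 9.58% of all genes were. Every SAG library was below every DMSO library for 1 of the 10, *Plod2* (3.84% of all genes), and above for 0 (7.9%). With DESeq2's Wald test 1 of the 10, *Plod2*, was called lower (413 of the 12311 genes to which it gave an adjusted p, 3.35%), and with limma voom 2, *Plod2* and *Loxl2* (2.52%).

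**Figure D1:**
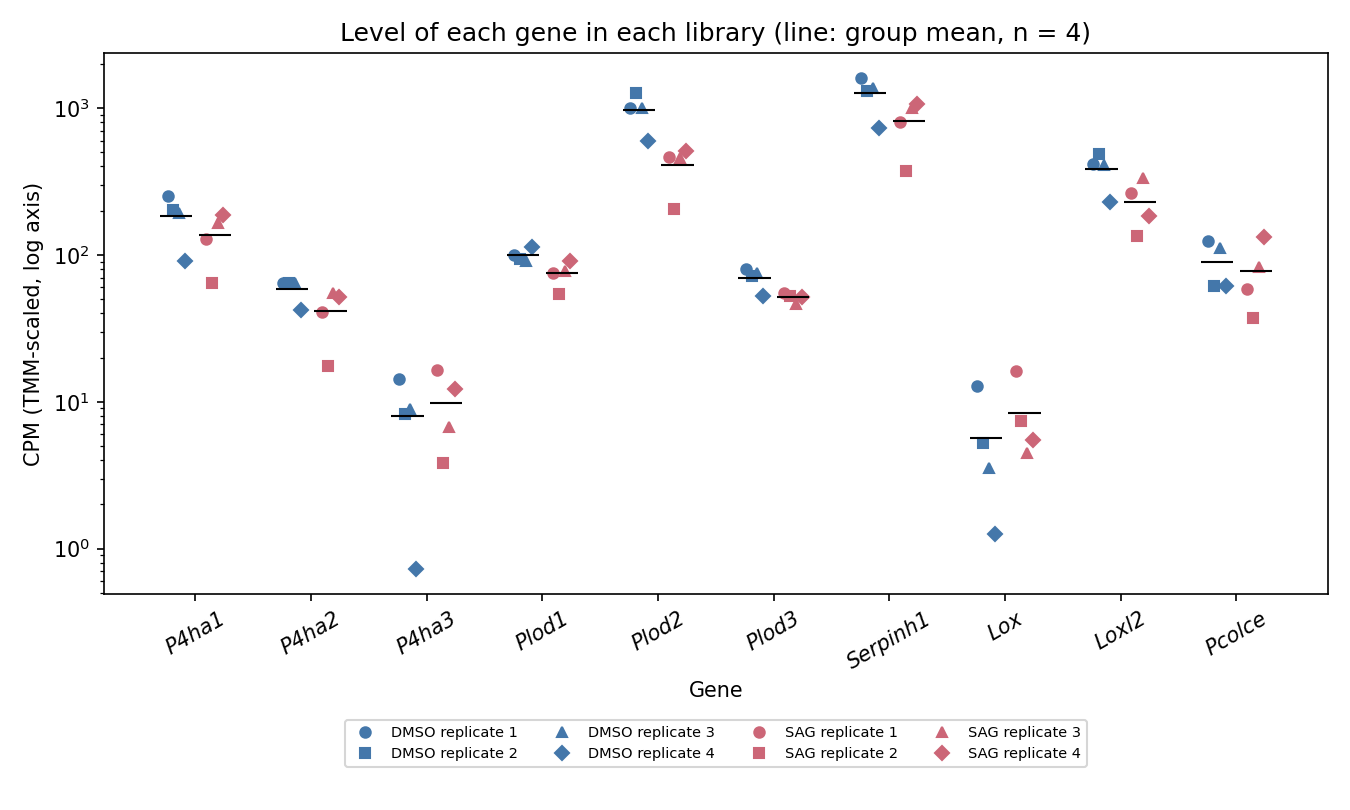
The level of each of the 10 genes in CPM (log axis) is plotted for the 4 DMSO libraries (blue) and the 4 SAG libraries (red), with a symbol for each replicate and a line at the group mean. For *Plod2* the SAG libraries (206 to 513 CPM) sit below the DMSO libraries (597 to 1259 CPM), and the groups overlap for the other 9 genes.

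The prolyl 4-hydroxylases add the hydroxyl groups that hold the triple helix together, and each enzyme combines 1 of the 3 catalytic subunits with the shared partner P4HB. *P4ha1* (chr10:59323296-59373304, plus strand), the main form in most tissues, was at 253, 203, 193, and 91.2 CPM in DMSO replicates 1 to 4 and at 128, 64.0, 166, and 187 CPM in SAG replicates 1 to 4. The groups overlapped widely, since the highest SAG library was above the lowest DMSO library by more than the distance between the group means. Means were 185 ± 67.7 CPM in DMSO and 136 ± 53.9 CPM in SAG (SD, n = 4 each), with a log2 fold change of -0.44 (95% interval -1.21 to 0.33, adjusted p = 0.620). *P4ha2* (chr11:54100095-54131665, plus strand), the form known from chondrocytes and bone cells, was at 64.5, 64.3, 63.9, and 42.4 CPM in DMSO and at 40.7, 17.5, 55.4, and 51.3 CPM in SAG. DMSO replicates 1 to 3 lay above all SAG libraries, whereas DMSO replicate 4 lay among them. The means of *P4ha2* were 58.8 ± 10.9 and 41.2 ± 17.0 CPM (log2 fold change -0.51, 95% interval -1.23 to 0.21, adjusted p = 0.510). *P4ha3* (chr7:100285520-100319699, plus strand), the rarest subunit, was at 14.4, 8.24, 8.88, and 0.721 CPM in DMSO and at 16.4, 3.80, 6.75, and 12.3 CPM in SAG. Its low value in DMSO replicate 4 rested on 19 counts, and the ranges of the groups largely coincided. The log2 fold change of *P4ha3* was 0.28 (95% interval -1.34 to 1.91, adjusted p = 0.906), so a difference of either sign could not be detected at this spread.

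*Serpinh1* (chr7:99345376-99353239, minus strand) encodes HSP47, a chaperone dedicated to collagen, without which the triple helix misfolds. It was at 1612, 1315, 1378, and 728 CPM in DMSO and at 809, 371, 999, and 1062 CPM in SAG. The first 3 DMSO libraries lay above all SAG libraries, and DMSO replicate 4 lay below all but SAG replicate 2. Means were 1258 ± 376 and 809.8 ± 312 CPM (log2 fold change -0.64, 95% interval -1.36 to 0.08, adjusted p = 0.390).

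The lysyl hydroxylases act on different parts of the collagen chain. *Plod1* encodes the form that hydroxylates lysines of the helix, *Plod2* the form for the telopeptides, the ends through which fibrils are crosslinked, and *Plod3* a form that can also attach the sugars. *Plod2* (chr9:92542223-92608428, plus strand) was at 1003, 1259, 998, and 597 CPM in DMSO and at 464, 206, 455, and 513 CPM in SAG. The lowest DMSO library stood above the highest SAG library, and no other of the 10 genes was separated in this way. Means were 964 ± 273 and 409.8 ± 138 CPM, and the log2 fold change was -1.23 (SE 0.30, 95% interval -1.90 to -0.57). Its adjusted p was 0.0538, just over the threshold, and 6 of 19 alternative settings called it lower. Among the 6 was a setting without DMSO replicate 4 and SAG replicate 2, chosen after seeing the data. Without DMSO replicate 4 its log2 fold change was -1.38 and its adjusted p 0.00880 (edgeR). *Plod1* (chr4:147909753-147936767, minus strand) was at 99.3, 94.0, 90.8, and 114 CPM in DMSO and at 75.7, 54.2, 78.1, and 91.1 CPM in SAG. The groups met at 1 point, where SAG replicate 4 exceeded DMSO replicate 3, and unlike the other genes *Plod1* was highest in DMSO replicate 4. Its means were 99.4 ± 10.1 and 74.7 ± 15.3 CPM (log2 fold change -0.41, 95% interval -0.85 to 0.02, adjusted p = 0.348). *Plod3* (chr5:136987019-136996648, plus strand) was at 80.1, 71.8, 75.5, and 52.1 CPM in DMSO and at 55.2, 52.7, 46.6, and 51.5 CPM in SAG. The SAG libraries were close together, and DMSO replicate 4 lay within their range. Its means were 69.9 ± 12.3 and 51.5 ± 3.60 CPM (log2 fold change -0.44, 95% interval -0.88 to -0.0019, adjusted p = 0.309). *Plod3* shares exonic bases with *Znhit1* on the opposite strand, and whether the counting used strand was not given in the sources used here.

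*Pcolce* (chr5:137605103-137613784, minus strand) encodes procollagen C-endopeptidase enhancer, which speeds the removal of the C-propeptide by BMP1-type proteases. It was at 125, 61.3, 112, and 61.5 CPM in DMSO and at 58.5, 37.1, 82.4, and 132 CPM in SAG. Both the lowest and the highest of the 8 values were in SAG libraries. Means were 89.9 ± 33.3 and 77.6 ± 40.9 CPM (log2 fold change -0.21, 95% interval -1.03 to 0.61, adjusted p = 0.859). *Pcolce* shares exonic bases with *Fbxo24* on the same strand, so reads of these bases could have been assigned to either.

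The lysyl oxidases convert lysines and hydroxylysines to the aldehydes from which crosslinks form. *Loxl2* (chr14:69609068-69695834, plus strand), the family member known from growth plate chondrocytes, was at 419, 485, 410.1, and 228 CPM in DMSO and at 264, 134, 335, and 184 CPM in SAG. DMSO replicate 4 lay below SAG replicates 1 and 3, and the other DMSO libraries above all of SAG. Means were 385 ± 110.2 and 229 ± 88.9 CPM (log2 fold change -0.75, 95% interval -1.41 to -0.08, adjusted p = 0.247). *Lox* (chromosome 18, minus strand), the founding member of the family, was at 12.8, 5.22, 3.53, and 1.25 CPM in DMSO and at 16.2, 7.34, 4.51, and 5.45 CPM in SAG. Replicate 1 was the highest in both groups, and the value of DMSO replicate 4 rested on 33 counts. Means were 5.71 ± 5.01 and 8.37 ± 5.34 CPM (log2 fold change 0.55, 95% interval -1.01 to 2.11, adjusted p = 0.789).

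Levels were compared between genes after division by the length of the merged exons (CPM per kb, the scale of this paragraph unless CPM is named). Merged exons take in all annotated transcripts of a gene, so the order depends on this choice of length. The order of the means was the same in both groups, namely *Serpinh1*, *Plod2*, *Loxl2*, *P4ha1*, *Pcolce*, *Plod3*, *Plod1*, *P4ha2*, *P4ha3*, and *Lox*. Without the division *Plod1* (99.4 CPM in DMSO, 74.7 CPM in SAG) was above *Plod3* (69.9 and 51.5 CPM) in both groups. It was then above *Pcolce* (89.9 and 77.6 CPM) in DMSO only. *Serpinh1* was at 515 ± 154 in DMSO and 331 ± 128 in SAG, and *Plod2* at 179 ± 50.7 and 76.0 ± 25.6. *Serpinh1* was above *Plod2* in every library without overlap of their ranges, at 2.88 times its mean level in DMSO and 4.36 times in SAG. At the other end *Lox* was at 1.19 ± 1.05 and 1.75 ± 1.12. *Plod3* and *Plod1* were not separated in either group, with *Plod3* higher in 3 of 4 DMSO and 2 of 4 SAG libraries. In DMSO the ranges of the neighbors *Plod2* and *Loxl2*, *Plod1* and *P4ha2*, and *P4ha2* and *P4ha3* also did not overlap, whereas in SAG all neighbors but the first pair overlapped. *Loxl2* exceeded *P4ha1*, and *P4ha1* exceeded *Pcolce*, in every DMSO library although their ranges overlapped.

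The balance within each enzyme family was then compared, as each gene's share of its family's counts per kb in the same library. Such shares do not depend on how the libraries are scaled. Among the lysyl hydroxylases *Plod2* made up 85.2%, 88.7%, 86.0%, and 79.6% in DMSO and 78.6%, 66.1%, 79.5%, and 79.3% in SAG. All SAG libraries were lower than all DMSO libraries on this scale, but DMSO replicate 4 and SAG replicate 3 were nearly equal. In shares of raw counts these 2 libraries changed places (78.3% and 78.5%), so that the groups overlapped (exact permutation test, p = 0.0571). Means were 84.9 ± 3.80% and 75.9 ± 6.54% (exact 2-sided permutation test, p = 0.0286, adjusted p = 0.114 over 8 values tested). The smallest p that 4 mice against 4 can give is 0.0286. Without SAG replicate 2 the difference was -5.75 in place of -9.02 percentage points. The share of *Plod3* was 8.11%, 6.03%, 7.76%, and 8.29% in DMSO and 11.2%, 20.1%, 9.70%, and 9.50% in SAG, higher in every SAG library. Its means were 7.55 ± 1.03% and 12.6 ± 5.06% (exact permutation test, p = 0.0286, adjusted p = 0.114), and without SAG replicate 2 the difference was 2.57 in place of 5.07 percentage points. The share of *Plod1* was 7.58 ± 3.06% in DMSO and 11.5 ± 1.58% in SAG, with DMSO replicate 4 among the SAG libraries (exact permutation test, p = 0.114, adjusted p = 0.190). Neutrophil markers were higher in SAG beside these shares, and their part in them was not tested.

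**Figure D2:**
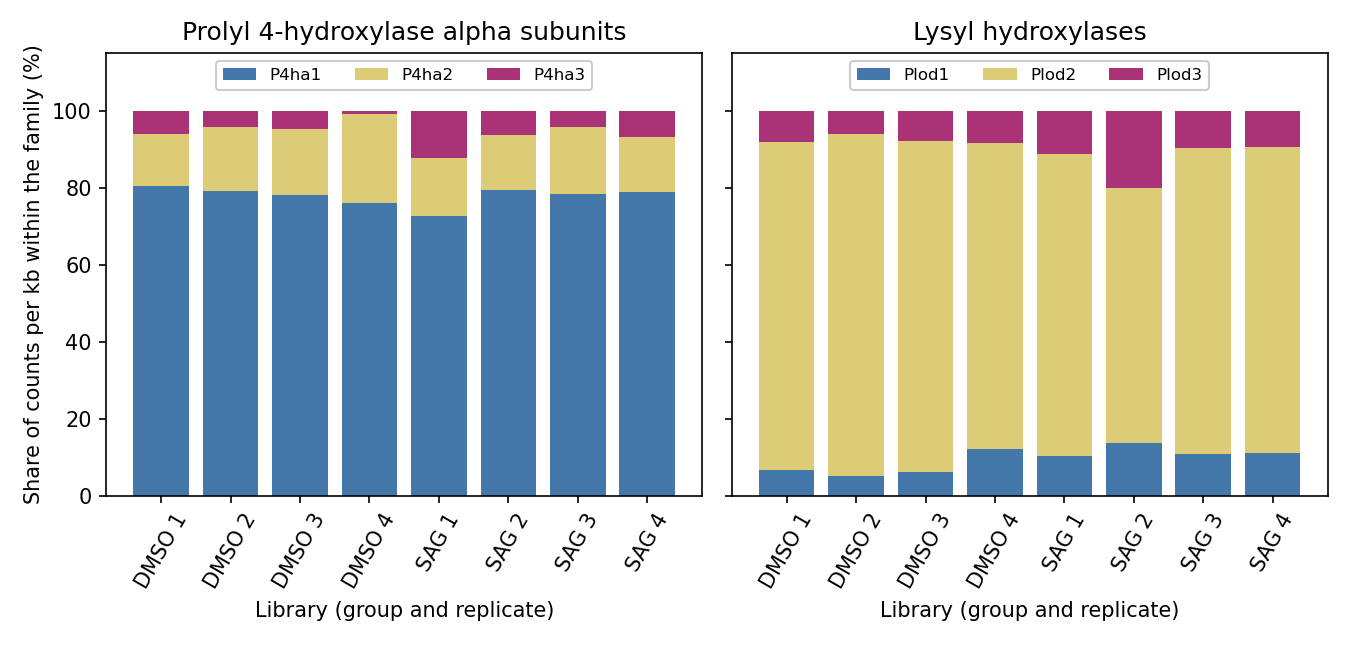
Stacked bars show each gene's share (%) of the counts per kb of its family in each of the 8 libraries, on the left for the prolyl 4-hydroxylase subunits and on the right for the lysyl hydroxylases. *Plod2* takes 79.6% to 88.7% in DMSO and 66.1% to 79.5% in SAG, whereas *P4ha1* stays between 72.6% and 80.4% in the 8 libraries.

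Among the prolyl 4-hydroxylase subunits *P4ha1* made up most of the transcripts in every library, 78.4 ± 1.92% in DMSO and 77.4 ± 3.19% in SAG (exact permutation test, p = 0.629, adjusted p = 0.629). *P4ha2* took 17.6 ± 4.09% and 15.3 ± 1.42% (exact p = 0.371, adjusted p = 0.424), and *P4ha3* took 3.93 ± 2.23% and 7.35 ± 3.42% (exact p = 0.143, adjusted p = 0.190). None of these 3 shares passed the test. The difference in the share of *P4ha2* was -2.34 percentage points and came to -3.70 when DMSO replicate 1 was left out and to -0.45 when replicate 4 of that group was, and that of *P4ha3* was 3.41 and came to 1.80 without SAG replicate 1. The widest 95% Clopper-Pearson interval of a share of raw counts among both families, for *P4ha1* in DMSO replicate 4, was 66.3% to 69.4%, and these intervals cover counting error only. For *Plod2* the intervals of DMSO replicate 4 (77.7% to 78.8%) and SAG replicate 3 (78.0% to 79.0%) overlapped. The log2 ratio of *Lox* to *Loxl2* per kb was -6.31 ± 1.05 in DMSO and -4.70 ± 1.01 in SAG (exact p = 0.0857, adjusted p = 0.190), with overlap. *Serpinh1* was also set against its clients, the 8 fibrillar collagen chains summed per kb. The log2 ratio was -4.02, -3.94, -3.69, and -3.84 in DMSO and -3.77, -3.84, -3.31, and -3.46 in SAG. SAG replicates 3 and 4 had the highest ratios, and the other libraries were mixed (difference 0.27, exact p = 0.143, adjusted p = 0.190).

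The 10 genes did not share a single profile. Likeness was measured as the root mean square difference between log2 CPM profiles over the 8 libraries, each centred on its own mean, so that a small value means that a pair of genes differed between libraries by like amounts. Of all pairs among the 10, *P4ha1* and *Serpinh1* (0.15) and *P4ha2* and *Serpinh1* (0.15) were closest, followed by *P4ha1* and *P4ha2* (0.25) and by *P4ha2* and *Loxl2* (0.32). These values describe 8 libraries that also differ in their content of chondrocyte transcripts.

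**Figure D3:**
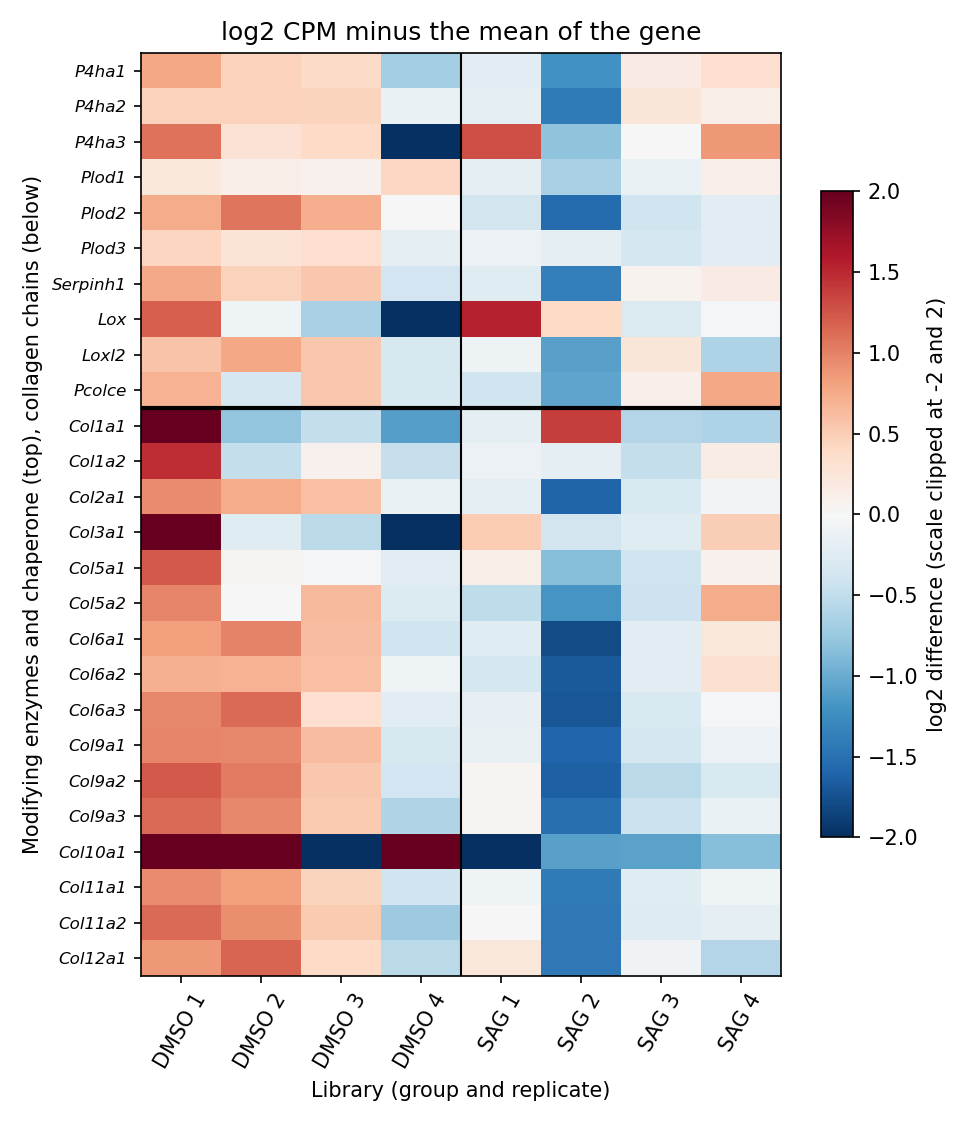
Colors show the log2 CPM of a gene in each library minus the mean of that gene over the 8 libraries, for the 10 enzymes and chaperone (above the black line) and 16 collagen chains (below it), with DMSO on the left and SAG on the right. DMSO replicates 1 to 3 are mostly red and SAG replicate 2 mostly blue in both blocks, and colors are clipped at -2 and 2.

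Among 13893 genes with a mean count of at least 50, the 3 nearest in profile were found for each of the 10. For *Serpinh1* they were *P3h3* (0.10), a member of the prolyl 3-hydroxylase family, *Bex3* (0.11), and *Rcn3* (0.12), a calcium-binding protein of the endoplasmic reticulum. *P4ha1* was nearest to *Psd3* (0.13), *Serpinh1* (0.15), and *Mettl21a* (0.16), and *P4ha2* to *Ldlrad3* (0.12), *Cnksr3* (0.14), and *Maged2* (0.14). *Plod2* was nearest to *Fn1* (0.15), which encodes fibronectin, *Ncmap* (0.16), and *Matn3* (0.16), which encodes a matrilin of cartilage. *Fn1* passed the test and was lower in SAG (log2 fold change -1.33, adjusted p = 0.0445). *Plod3* was nearest to *Nfx1* (0.07), *Sept11* (0.11), and *Sec63* (0.11), and *Plod1* to *Pole3* (0.11), *Selenos* (0.13), and *Uggt2* (0.13), of which *Sec63*, *Selenos*, and *Uggt2* serve protein import or quality control in the endoplasmic reticulum. *Pcolce* was nearest to *Phtf2* (0.11), *Ccnd2* (0.13), and *Pde7b* (0.21), and *Loxl2* to *Msi2* (0.18), *Bcl9l* (0.20), and *Aff3* (0.20). For the 2 low genes no profile came as near. Near *Lox* were *Zfp235* (0.31) and *Gpr85* (0.34), and *P4ha3* had *Sdk1* (0.34), *Pcdhb22* (0.36), and *Itga9* (0.37).

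The same pathway holds further genes of hydroxylation, folding, export, propeptide removal, and crosslinking, and 31 of 32 such genes listed were in the table and tested. None passed the test in either direction. The estimate was below 0 for 26 of the 31, against 54.8% of all tested genes, with a median log2 fold change of -0.56. At an unadjusted p under 0.05, 7 were lower and 0 higher, where 6.5% and 9.58% of all genes were. The 4 with the largest estimates were *Adamts3*, *Loxl4*, *Colgalt2*, and *Loxl1*. *Adamts3*, an N-propeptidase of type II procollagen, was at 40.4, 53.9, 42.9, and 21.7 CPM in DMSO and at 20.7, 10.3, 9.24, and 20.1 CPM in SAG. Its groups did not overlap (log2 fold change -1.40, adjusted p = 0.0743). Of the 31 genes 2 were separated with SAG below, *Adamts3* and *Loxl3*, as were 3.84% of all genes. *Loxl4*, a lysyl oxidase, was at 138, 196, 72.4, and 83.7 CPM in DMSO and at 55.9, 30.9, 73.5, and 36.9 CPM in SAG, where SAG replicate 3 just exceeded DMSO replicate 3 (log2 fold change -1.31, adjusted p = 0.0776). *Colgalt2*, a collagen galactosyltransferase (log2 fold change -1.09, adjusted p = 0.257), overlapped between groups. So did *Loxl1* (-1.07, adjusted p = 0.643), which DMSO replicate 4 held at 0.342 CPM against 72.0 to 90.2 CPM in the other DMSO libraries. DESeq2 called 3 of the 31 lower, *Adamts3*, *Loxl4*, and *Loxl3*, and voom 5, these 3 with *Bmp1* and *Colgalt2*. Over all genes DESeq2 called 3.35% lower and voom 2.52%. *Loxl3* and *Bmp1* were named after their values were seen. *P4hb*, the partner of the prolyl 4-hydroxylase subunits, did not pass the test (log2 fold change -0.33, adjusted p = 0.487).

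Estimates for the substrates of these enzymes lay further below 0. All 16 collagen chains listed had estimates below 0, against 54.8% of all tested genes, with a median log2 fold change of -0.94. Of the chains 1 was called lower with edgeR, 5 with DESeq2, and 8 with voom. The shares called lower over all genes were 0.266%, 3.35%, and 2.52%. *Col10a1*, the collagen of hypertrophic chondrocytes, was at 473, 279.7, 14.1, and 364 CPM in DMSO and at 9.57, 28.6, 28.7, and 33.7 CPM in SAG, and was lower in SAG (log2 fold change -3.49, adjusted p = 0.0368), although DMSO replicate 3 was as low as the SAG libraries. It did not pass with voom (-2.46, adjusted p = 0.156) or with the marker scaling described next (-2.32, adjusted p = 0.0692). *Col2a1*, the main collagen of cartilage, was at 68832, 59725, 53759, and 32463 CPM in DMSO and at 31042, 11759, 28779, and 34149 CPM in SAG (log2 fold change -1.02, adjusted p = 0.158). *Col1a1*, the collagen of bone and fibrous tissue, was estimated at -0.53 on the log2 scale (adjusted p = 0.811) and was highest in DMSO replicate 1 and SAG replicate 2. The 11 chondrocyte markers also all had estimates below 0, with a median of -0.99. At an unadjusted p under 0.05, 9 of them were lower, where 6.5% of all genes were. Of these markers 0 were called lower by edgeR, 5 by DESeq2, and 7 by voom, beside the same shares over all genes. The median of the 10 modifying genes, -0.44, was thus nearer to 0 than those of the chains and of the markers, and the difference between lists was not tested.

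Since the estimates of the chondrocyte markers were below 0, the fit was repeated with libraries scaled to an equal geometric mean of the 11 chondrocyte markers. On this scale the median log2 fold change over all genes was 1.09 in place of -0.08, 1319 genes (8.55%) were called higher and 3 lower, and none of the 10 was called, with 2 higher (*P4ha3* and *Lox*) at an unadjusted p under 0.05, where 33.8% of all genes were. The estimates of 9 of the 10 were above 0, as were those of 90.5% of all genes. They were 0.66 for *P4ha1*, 0.49 for *P4ha2*, 1.50 for *P4ha3*, 0.59 for *Plod1*, 0.81 for *Plod3*, 0.43 for *Serpinh1*, 1.99 for *Lox*, 0.38 for *Loxl2*, and 0.80 for *Pcolce*. *Plod2* was the exception, at -0.17 (95% interval -1.12 to 0.78, adjusted p = 0.804). Relative to the median of all genes on the same scale, *Plod2* was at -1.15 with TMM and at -1.26 with marker scaling, and the median of the 10 genes was at -0.36 and -0.47. The other 7 genes with estimates below 0 with TMM were above 0 with marker scaling, which shifted all genes, and remained below the median of all genes on both scales, *Serpinh1* for example at -0.55 and -0.67. *P4ha3* and *Lox* were above 0 and above that median on both scales, without a call on either. Subtracting the median takes out a shift common to all genes, so like positions on the 2 scales are not separate evidence.

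**Figure D4:**
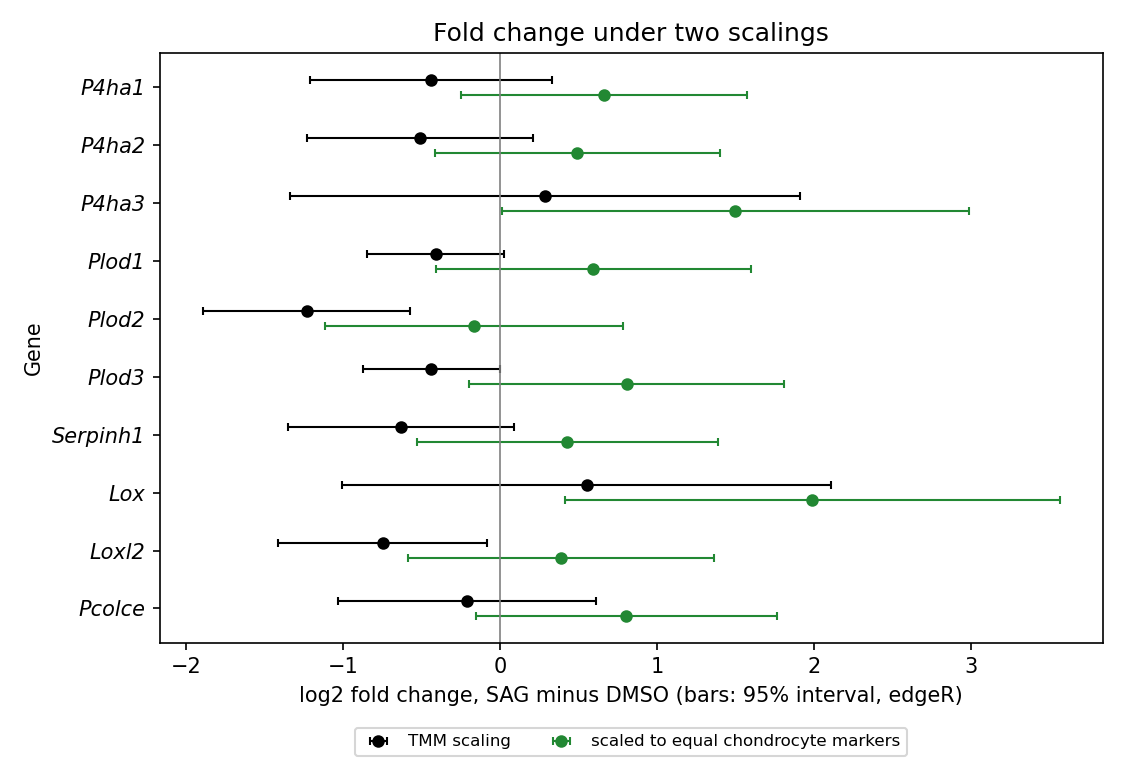
The log2 fold change of each gene (SAG minus DMSO, edgeR) is shown with its 95% interval after TMM scaling (black) and after scaling to equal chondrocyte markers (green). After TMM scaling *Plod2* is farthest below 0, at -1.23, and after marker scaling it is at -0.17 while the other 9 genes are above 0.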

How the data were processed

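The authors deposited a table of estimated counts per gene for 8 libraries, 4 per group, each from a different mouse. Libraries were made with a stranded total RNA kit for picogram inputs. The submitters' processing notes name kallisto, DESeq2, and the genome build GRCm38, without roles or versions, and the study's text does not state how the counts or the tests were made. The values were whole numbers and were used as deposited. GENCODE release M21 held 16524 of the 16536 symbols and gave their coordinates and merged exon lengths. Row names matched the samples' labels, with 0 rows unmatched, and libraries were compared in R 4.3.3 with edgeR 4.0.16 (filterByExpr, TMM, robust quasi-likelihood test over 15421 genes, Benjamini-Hochberg adjustment, threshold 0.05). A prior count of 2 was used for log2 CPM in profiles. Shares and ratios within a library were compared by exact 2-sided permutation tests over the 70 relabellings. P-values refer to the spread between mice.

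No pair of libraries of the same group agreed within sampling noise. Depth was 24971992 to 46593090 counts and lowest in DMSO replicate 4. That library also had the fewest genes with counts, 14416 against 15524 to 16285 in the others. Its Spearman correlations with the other DMSO libraries were 0.83 to 0.87, against 0.93 to 0.94 among those libraries. The fit was tested on simulated data of this comparison with 200 changed genes, of which edgeR recovered 0% at a 2-fold, 45.5% at a 4-fold, and 62% at an 8-fold change, on 14987, 14960, and 14985 genes, with 0, 4, and 6 false calls. DESeq2 1.42.0 recovered 19%, 60.5%, and 77%, with 34, 45, and 64 false calls. Alternatives were DESeq2, limma 3.58.1 voom with sample quality weights, other size factors, other filters on low counts, scaling to chondrocyte markers, marker scores as covariates, a replicate block, and each library left out. DMSO replicate 4 and SAG replicate 2 were also left out together, a setting chosen after seeing the data. The genes and lists were chosen with earlier results of these data known. Named beyond the 10 genes were the 4 pathway genes with the largest absolute log2 fold change at a mean count of at least 50, *Col1a1*, *Col2a1*, and *Col10a1*, and the 3 nearest profiles of each gene, of which 1 is not reported here. The study's images, sorting data, and bone measurements were not used here.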

Additional observations from a re-analysis of the deposited data

Results flagged for a closer look

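Within each group of 4 libraries, a value was examined further when its gap to the nearest other value, divided by the range of the group, exceeded Dixon's 95% critical value for 4 samples. Of 36 pairs of a measure and a group, 4 did, where chance gives 1.8. The *P4ha2* level of DMSO replicate 4 was 42.4 CPM, and the nearest DMSO library was at 63.9 CPM (ratio of gap to range 0.970). The share of *P4ha1* among prolyl 4-hydroxylase subunits was 72.6% in SAG replicate 1, and the nearest was 78.5% (ratio 0.855). The share of *Plod2* among lysyl hydroxylases was 66.1% in SAG replicate 2, and the nearest was 78.6% (ratio 0.939). The share of *Plod3* was 20.1% in the same library, and the nearest was 11.2% (ratio 0.845). SAG replicate 2 also had the lowest sum of chondrocyte markers (4535 CPM) and the highest sum of neutrophil markers (44835 CPM) of the 8 libraries. The part of these in its shares was not tested.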

How the results depend on the processing

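With edgeR 0 of the 10 genes were called lower, against 1 with DESeq2, 2 with voom, 1 with plain library size, 1 with at least 10 counts in every library, 0 to 1 when each library was left out in turn (1 without DMSO replicate 4), and 2 without both DMSO replicate 4 and SAG replicate 2, a setting chosen after seeing the data (*Plod2*, adjusted p = 0.00136, and *Serpinh1*, adjusted p = 0.0461). Pathway genes called lower numbered 0, against 3 with DESeq2 and 0 to 7 when each library was left out (7 without DMSO replicate 4). Calls over all genes rose in the same settings. Lower were 41 of 15421 genes in the main fit, 52 with plain library size, and 87 of 12031 with at least 10 counts in every library. Without DMSO replicate 4 they were 343 of 15785, and without both libraries 298 of 15501. No setting called any of the 10 higher. *Lox* and *Plod2* kept the sign of their estimate in 19 of 19 settings, but *Lox* (0.55) was at 0.016 without SAG replicate 1 and at 1.33 without DMSO replicate 1. Scaling to chondrocyte markers turned *P4ha1* (0.66), *P4ha2* (0.49), *Plod1* (0.59), *Plod3* (0.81), *Serpinh1* (0.43), *Loxl2* (0.38), and *Pcolce* (0.80). A neutrophil marker score as covariate turned *P4ha1* (1.11), *P4ha2* (0.37), *Plod3* (0.022), *Serpinh1* (0.58), *Loxl2* (0.63), and *Pcolce* (0.22), and a chondrocyte score turned *P4ha1* (0.75), *P4ha2* (0.36), *Serpinh1* (0.42), *Loxl2* (0.070), and *Pcolce* (0.68), with none of the 10 called. With these covariates *Plod2* was at -0.03 (adjusted p = 0.983) and -0.31 (adjusted p = 0.592). Over all 15421 genes the neutrophil score left 0 called higher and 12 lower, and the chondrocyte score 0 higher and 1 lower. Summed neutrophil markers did not overlap between the groups, so that covariate and the treatment can hardly be told apart. The lack of calls in the neutrophil fit is therefore no result about the 10 genes. Summed chondrocyte markers overlapped between the groups, so this reason does not cover the chondrocyte score. With that score almost no gene of the table was called, so the lack of calls was not particular to the 10. *Plod2* moved from -1.23 (SE 0.30) in the main fit to -0.31 (SE 0.20) with it, and the part of chondrocyte content in this was not tested. *P4ha3* was at -0.027 with voom and between -0.080 and 0.72 when each library was left out, and *Pcolce* between -0.60 and 0.020. *Plod2* ranged from -1.38 to -1.01 when each library was left out. The share of *P4ha1* differed by 0.30 percentage points in raw counts and by -1.07 per kb, and by between -1.91 and 0.51 when each library was left out. The causes were not tested. The sample labels do not say whether replicate numbers pair the mice. Correlations of deviations were 0.12, 0.02, 0.02, and 0.01 for libraries of the same number. For libraries of different numbers they ran from -0.117 to 0.084, so pairing was neither shown nor excluded. With a replicate block 0 of the 10 were called, *Plod2* being at -1.26 (adjusted p = 0.133), while 18 genes in all were lower in place of 41. Over all genes the number called lower was between 1 with a chondrocyte score and 413 with DESeq2. Of simulated 2-fold changes edgeR recovered 0% and DESeq2 19%, so the lack of a call does not show that a gene was unchanged. DESeq2 made 34 false calls there beside 38 recovered genes, so a call by DESeq2 alone is not secure either.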
